A study of Mus musculus with 40 samples.

Results

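The 8 genes described here encode the enzymes that make serine and pass its carbon on to glycine: Phgdh, Psat1 and Psph (the phosphorylated route of serine synthesis), Srr (serine racemase), Shmt1 and Shmt2 (the serine hydroxymethyltransferases), and Gldc and Amt (components of the glycine cleavage system). They were chosen by symbol, and all 8 were found among the 24058 gene symbols of the count table. Their RNA was measured in 40 libraries of mouse striatum, in 10 groups of 4. In the ribosome-bound RNA of the Control cohort, 5 of the 8 (Gldc, Phgdh, Psat1, Psph and Amt) were 2.87-fold to 7.22-fold higher than in the matched input. With an adjusted p under 0.05 and a log2 fold change above 1, 13.4% of all genes tested were higher there. In the neuronal (Syn) cohort the same 5 were at or below their input. In the SAPAP3 knockout none of the 8 passed the test against wild type in ribosome-bound, input or bulk RNA. Of all genes tested, 0.0263%, 0.00641% and 0% passed there, in that order.

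Serine is made in cells from the glycolytic intermediate 3-phosphoglycerate. Phgdh oxidises it and commits carbon to the pathway, Psat1 transfers an amino group from glutamate, and Psph removes the phosphate to release L-serine. Srr converts L-serine into D-serine, which binds the co-agonist site of NMDA receptors. Shmt1 in the cytosol and Shmt2 in mitochondria split serine into glycine and a carbon unit that is carried by folate. Glycine is then broken down in mitochondria by the glycine cleavage system, of which Gldc is the decarboxylase and Amt the aminomethyltransferase. In the brain, serine synthesis and glycine cleavage are known as features of astrocytes, and neurons are thought to depend in part on serine that glia release.

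RiboTag is a method in which a tagged ribosomal protein, Rpl22-HA, is expressed from an AAV in chosen cells, and ribosomes with their RNA are then pulled out of a tissue lysate with an antibody to the tag. The immunoprecipitate is called IP here and the RNA of the whole lysate is called input. Expression was driven by the gfaABC1D promoter for astrocytes or by hSyn1 for neurons. The Control groups (IP and input) and the Syn groups (IP and input) came from adult C57/BL6NTac mice with no gene deleted. The SAPAP3 cohort compared wild-type C57/BL6J mice (WT) with C57/BL6J-Dlgap3 KO mice (KO), which lack SAPAP3, a postsynaptic scaffold protein, and which serve as a model of obsessive-compulsive disorder. All mice were adult, and those of the SAPAP3 cohort received the virus at a later age than the C57/BL6NTac mice. Each genotype gave IP and input libraries. Bulk striatum of WT and Sapap3KO mice, both labelled C57/BL6NTac, was sequenced without immunoprecipitation. The labels name the promoter for the Syn IP only. For the Control IP the astrocyte virus was taken from the series design by elimination, and for the SAPAP3 cohort no cell type is given, so its IP is called by cohort only. The labels give each library an animal identifier, a WT and a KO bulk library carry the same one, and Syn inputs and Syn IP carry different ones although their titles share numbers. Viral expression depends on the injection site and on promoter activity, so an IP samples the transduced cells of the striatum and not all cells of a type.

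Libraries held 23438112 to 84109800 counts. All 10 astrocyte markers passed the test as higher in the Control IP (median log2 fold change 2.93), and their summed level was 36181 to 39531 CPM (counts scaled to library size) in IP against 3691 to 3921 in input. Of 9 neuron markers 0 were called there, with 4 higher and 4 lower at the adjusted p threshold alone. Their summed level was 4859 to 5227 CPM in Control IP against 5592 to 5948 in input. Of 10 oligodendrocyte markers 0 were called higher and 1 lower, with sums of 3900 to 6574 CPM against 5493 to 6460. The part of these cells in the Control IP was not tested. In the Syn IP, 9 of 9 neuron markers were higher at the adjusted p threshold, 2 of them beyond the fold limit, and their summed level was 9079 to 9495 CPM against 5541 to 5805. Microglial markers fell in all IP groups, with 10 of 10 called lower in each. The SAPAP3 cohort IP had 10 of 10 astrocyte markers called higher in each genotype, and 4 of 10 oligodendrocyte markers as well. Dlgap3, the deleted gene, was lower in KO than WT IP by a log2 fold change of -1.40 (SE 0.17, adjusted p = 0.0283) and in input by -1.19 (SE 0.10, adjusted p = 0.00698). In bulk it stood at 136 to 158 CPM in KO against 229 to 377 in WT (log2 fold change -1.14, SE 0.14, adjusted p = 0.318), so the groups did not overlap but the adjusted test was not passed. Xist and Y-linked counts marked 0 of 4 mice as female in the Control cohort, 4 of 4 in the Syn cohort, 1 of 4 in each genotype of the SAPAP3 cohort, 1 of 4 in bulk WT and 0 of 4 in bulk KO.

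The genes lie on separate chromosomes for the most part. In the RefSeq annotation of mouse build GRCm38.p6, Phgdh is at chr3:98313171-98339969, Psat1 at chr19:15905123-15925059, Psph at chr5:129765558-129787443 and Srr at chr11:74904027-74927533. Shmt1 is at chr11:60788897-60811265, Shmt2 at chr10:127517123-127522444, Gldc at chr19:30098441-30175441 and Amt at chr9:108296905-108302302. Amt is on the plus strand and the other 7 genes on the minus strand. Shared letters limit some counts. Exons of Srr overlap those of Tsr1, on the opposite strand, over 1566 bases, which is 20.1% of its exon length, and whether counting used strand is not given in the sources used here. Phgdh has 2 intronless copies in the genome, on chromosomes 8 and 7, that are 98.9% and 97.9% identical to its transcript, while no copy of Psat1 or Shmt2 exceeded 92.4% and none was found for the other 5 genes.

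The upstream sequences of 4 of the 5 genes that moved together are shown so that they can be set side by side (RefSeq, GRCm38.p6, the 250 bases before the annotated start, written 5′ to 3′ on the gene's own strand). The window of Psph lies within annotated exons, including those of its neighbour Cct6a, and is not printed, and of the 2 annotated starts of Psat1 the outer is shown. Capitals mark CCAAT or its reverse complement ATTGG, letters that are bound by the general promoter factor NF-Y when in a suitable setting.
Phgdh (chr3:98339970-98340219, minus strand): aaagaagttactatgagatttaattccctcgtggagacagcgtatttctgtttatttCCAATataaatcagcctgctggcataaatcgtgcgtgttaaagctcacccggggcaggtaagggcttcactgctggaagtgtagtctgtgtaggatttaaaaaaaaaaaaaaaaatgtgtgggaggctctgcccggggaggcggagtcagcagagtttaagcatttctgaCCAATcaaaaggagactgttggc
Psat1 (chr19:15925060-15925309, minus strand): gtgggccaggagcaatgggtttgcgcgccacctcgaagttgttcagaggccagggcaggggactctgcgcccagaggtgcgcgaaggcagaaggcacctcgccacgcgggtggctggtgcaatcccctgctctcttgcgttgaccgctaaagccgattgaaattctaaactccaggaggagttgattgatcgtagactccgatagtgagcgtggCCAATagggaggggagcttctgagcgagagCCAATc
Gldc (chr19:30175442-30175691, minus strand): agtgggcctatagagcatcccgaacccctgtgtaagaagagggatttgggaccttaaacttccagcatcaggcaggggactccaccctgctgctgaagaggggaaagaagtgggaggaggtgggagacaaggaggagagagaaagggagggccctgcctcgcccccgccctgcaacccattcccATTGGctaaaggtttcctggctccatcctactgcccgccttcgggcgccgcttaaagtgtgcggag
Amt (chr9:108296655-108296904, plus strand): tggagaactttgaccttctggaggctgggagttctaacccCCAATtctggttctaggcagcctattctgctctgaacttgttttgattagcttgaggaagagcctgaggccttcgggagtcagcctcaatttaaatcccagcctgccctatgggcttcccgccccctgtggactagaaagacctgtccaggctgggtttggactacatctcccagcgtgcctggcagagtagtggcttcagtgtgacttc

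CCAAT on either strand occurred in 6 of the 9 windows of the 8 genes and in 33.8% of all 32851 RefSeq promoter windows. It lay 36 to 32 and 6 to 2 bases before the start in Psat1, and 193 to 189 and 23 to 19 bases before it in Phgdh. In Gldc it lay 66 to 62 bases and in Amt 210 to 206 bases before the start. In Psph it lay 78 to 74 and 48 to 44 bases before the start. It also lay 47 to 43 bases before the start in Shmt1, which is not 1 of the genes that moved together. These letters were searched for after the windows had been seen. The composite C/EBP-ATF element TGATGNAA, through which ATF4 acts on amino acid genes, was searched on both strands of the 300 bases from 250 before to 50 after the start. It was in 0 of the 9 windows, and in 3.97% of all windows. A match of letters is a description of the sequence and not a site of binding.

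Levels are given as CPM, the count of a gene scaled by TMM to a library of fixed size, and n is 4 libraries in every group. Genes were compared with each other only per length, as FPKM (CPM per kilobase of merged exons). That length is 7801 bases for Srr and 3551 for Psph, where their longest coding transcripts have 3699 and 1733 bases. For Psat1 the lengths are 2491 and 2617 bases. The order of the genes and the ratios between them depend on this choice, and other lengths were not tried. A gene was called between IP and input when edgeR's quasi-likelihood test gave a Benjamini-Hochberg adjusted p under 0.05 and the log2 fold change lay above 1 or below -1. By merged exon length, Psat1 was the most abundant of the 8 in every group, at 43.7 ± 1.29 FPKM (SD, n = 4) in Control input and 156 ± 11.1 in Control IP. Phgdh followed in Control IP at 147 ± 8.61 FPKM, which overlaps the range of Psat1, and Gldc stood at 59.0 ± 6.96. The place of Phgdh there carries the difference of the Control cohort in its level that is described below. Amt (21.2 ± 2.14 FPKM), Psph (13.9 ± 0.78), Shmt2 (11.1 ± 0.33) and Srr (10.6 ± 0.30) were lower there, and Shmt1 was lowest at 1.08 ± 0.15. In the Syn IP, Psat1 (29.2 ± 2.46 FPKM) was followed by Srr at 14.6 ± 0.17, ahead of Phgdh (8.10 ± 0.66) and Shmt2 (6.46 ± 0.22). Gldc (4.84 ± 0.67 FPKM) and Amt (4.41 ± 0.31) overlapped each other in the Syn IP.

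**Figure D1:**
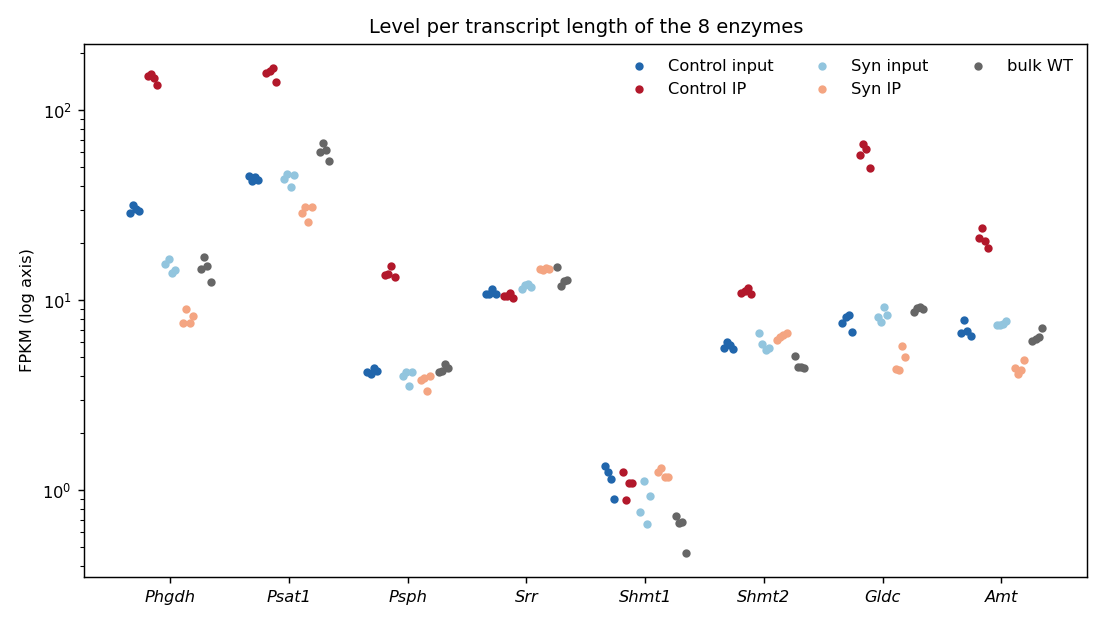
Level per exon length (FPKM, logarithmic axis) of each enzyme in 5 groups, 1 point per library. Among the genes, Psat1 and Phgdh lie highest in the Control IP, Shmt1 lies lowest in all groups shown, and every Srr point stands above every Phgdh point in the Syn IP. Points of Phgdh cannot be compared between the Control groups and the others.

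The comparison of IP with input in the Control cohort asked which of these RNAs were enriched on ribosomes of the tagged cells over the tissue as a whole. Of the 8 genes, 5 were called higher and 0 lower, where 13.4% of the 15476 genes tested were called higher and 13.5% lower. The median log2 fold change was 1.58 over the 8 genes and -0.03 over all genes tested. Without the fold limit, 6 of 8 were higher and 1 was lower at the adjusted p threshold, against 39.2% and 41.2% of all genes.

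Among the synthesis enzymes, Phgdh was at 53.7, 59.1, 56.8 and 55.3 CPM in the Control inputs and at 283, 290, 277 and 253 CPM in the matched IP. Every IP library stood far above every input, a 4.65-fold difference (log2 fold change 2.22, SE 0.05, adjusted p = 1.06e-11). Psat1 was at 112, 105, 111 and 107 CPM in input and at 391, 401, 414 and 350 CPM in IP. Its ranges did not overlap, and it was 3.39-fold higher (log2 1.76, SE 0.05, adjusted p = 6.29e-11). Psph was at 14.95, 14.6, 15.6 and 15.1 CPM in input and at 48.3, 49.0, 53.5 and 47.2 CPM in IP, again without overlap. It was 3.12-fold higher (log2 1.64, SE 0.05, adjusted p = 1.03e-10). The log2 fold changes of the 3 enzymes of the route thus lay between 1.64 and 2.22. By merged exon length the level of Psph was far below that of Psat1, at a ratio of 0.0971 ± 0.0026 in input and 0.0894 ± 0.0041 in IP.

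Gldc had the largest difference of the 8, ranking 62 of 15476 genes from the highest. It was at 28.7, 30.8, 31.8 and 25.9 CPM in Control input and at 220, 250, 235 and 188 CPM in IP. This is 7.22-fold (log2 2.85, SE 0.09, adjusted p = 1.17e-10), with the lowest IP library still well above the highest input. Its partner Amt was at 13.8, 16.2, 14.1 and 13.3 CPM in input and at 43.5, 49.1, 42.2 and 38.5 CPM in IP. Amt was 2.87-fold higher (log2 1.52, SE 0.08, adjusted p = 1.04e-08), less than Gldc in the same libraries. The ratio of Gldc to Amt per length was therefore 1.11 ± 0.09 in input and 2.79 ± 0.16 in IP.

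The hydroxymethyltransferases and the racemase behaved differently from these 5. Shmt2, the mitochondrial enzyme, was at 12.9, 13.8, 13.4 and 12.7 CPM in input and at 25.3, 25.6, 26.6 and 24.9 CPM in IP. The groups did not overlap and the adjusted p was 1.93e-08, but the log2 fold change of 0.88 (SE 0.05) lay within the fold limit. Shmt1, the cytosolic enzyme, was scarce throughout the series, with 44 to 209 counts in any library. In the Control cohort it was at 3.05, 2.82, 2.59 and 2.05 CPM in input and 2.84, 2.01, 2.48 and 2.47 CPM in IP, which overlap (log2 -0.17, SE 0.16, 95% interval -0.48 to 0.13, adjusted p = 0.318). Srr was at 84.0, 83.8, 89.2 and 84.2 CPM in input and at 82.2, 82.5, 85.6 and 79.8 CPM in IP. These ranges overlap, and the small decrease passed the adjusted test (log2 -0.12, SE 0.03, adjusted p = 0.00638). For Srr, reads from the overlapping exons of Tsr1 cannot be told apart unless strand was used.

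**Figure D2:**
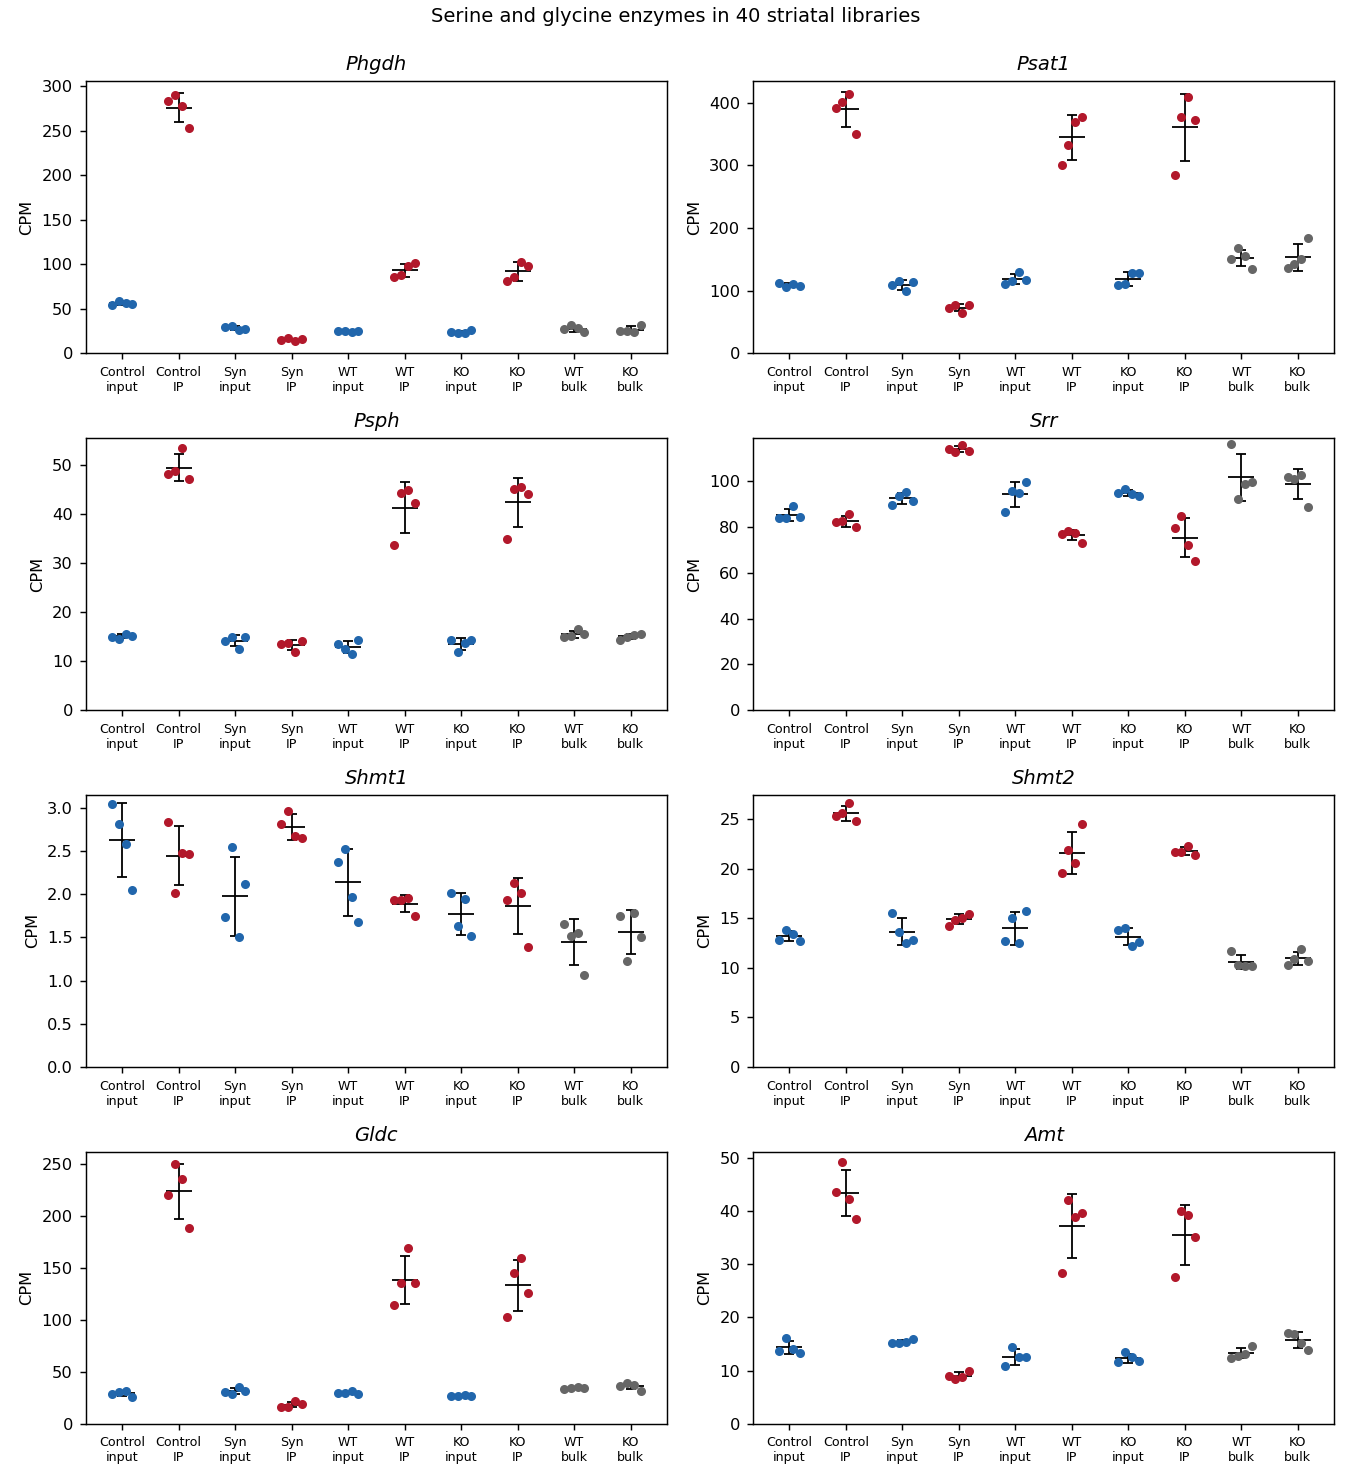
CPM of each enzyme in all 40 libraries, by group (red points are IP, blue are input, grey are bulk), with the mean and SD of 4 libraries in black. Phgdh, Psat1, Psph, Gldc and Amt stand high in the Control IP and in the WT IP and KO IP of the SAPAP3 cohort and at or below input in the Syn IP, while Srr is highest in the Syn IP.

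The Syn cohort put the same question to neurons. By the call with the fold limit, 0 of the 8 genes were higher and 0 lower, where 0.42% and 15.8% of the 16198 genes tested were. At the adjusted p threshold alone, 4 of the 8 (Phgdh, Psat1, Gldc and Amt) were lower and 2 (Srr and Shmt1) higher, beside 35.9% and 35.5% of all genes. With the replicate block, which pairs IP and input by the number in their titles, Psph passed as well. Then 5 of the 8 were lower, as were 6416 of the 16198 genes tested. At an unadjusted p under 0.05 the count was 6 of 8, and 11913 of all genes. With limma-voom and DESeq2, 0 of the 8 were called under the fold limit, beside 2641 and 2632 of all genes. The median log2 fold change was -0.38 over the 8 genes and 0.00 over all genes. When libraries were scaled by total counts, which moved the median of all genes to -0.21, 3 of the 8 (Phgdh, Gldc and Amt) were called lower. Of the 16198 genes tested, 3105 were called lower under that scaling.

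Phgdh was at 28.9, 30.8, 26.1 and 26.9 CPM in the Syn inputs and at 14.2, 16.8, 14.1 and 15.4 CPM in the IP. Every IP library was below every input (log2 -0.94, SE 0.07, adjusted p = 1.80e-06). Psat1 was at 108, 115, 98.6 and 114 CPM in input and at 71.8, 77.6, 64.4 and 77.0 CPM in IP, also without overlap (log2 -0.63, SE 0.07, adjusted p = 1.65e-05). Psph, the last enzyme of the route, had a smaller difference. It was at 14.2, 14.9, 12.6 and 14.9 CPM in input and at 13.6, 13.8, 11.8 and 14.2 CPM in IP, ranges that overlap (log2 -0.13, SE 0.08, 95% interval -0.28 to 0.01, adjusted p = 0.139). Within each same-numbered pair the IP was the lower, and with the replicate block the adjusted p was 0.0209 at a log2 fold change of -0.13. Without Syn input replicate 3 it was 0.0437. The ratio of Psph to Psat1 per length was 0.0894 to 0.0922 in the Syn inputs and 0.125 to 0.133 in the Syn IP.

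Gldc was at 30.8, 29.0, 35.0 and 31.5 CPM in the Syn inputs and at 16.4, 16.3, 21.7 and 19.0 CPM in the IP. The IP was lower in all libraries, by 0.83 on the log2 scale (log2 -0.83, SE 0.10, adjusted p = 2.61e-05). Amt was at 15.2, 15.2, 15.4 and 15.9 CPM in input and at 9.03, 8.37, 8.82 and 9.88 CPM in IP (log2 -0.82, SE 0.06, adjusted p = 1.31e-06), without overlap. Both glycine cleavage genes thus moved alike here, and their ratio per length was 1.11 ± 0.09 in input and 1.10 ± 0.16 in IP. Srr went the other way, from 89.7, 93.7, 95.2 and 91.5 CPM in input to 114, 113, 116 and 113 CPM in IP. The IP libraries lay close together and all above the inputs (log2 0.25, SE 0.03, adjusted p = 6.55e-05), but under total-count scaling the log2 value was 0.05 with adjusted p = 0.185. Shmt1 was at 1.74, 2.55, 1.51 and 2.12 CPM in input and at 2.82, 2.97, 2.67 and 2.65 CPM in IP (log2 0.44, SE 0.16, adjusted p = 0.028, and 0.205 under total-count scaling). Without Syn input replicate 1, Syn input replicate 3 or Syn IP replicate 2, the adjusted p of Shmt1 was 0.0744, 0.0593 or 0.0518. Shmt2 was at 15.6, 13.6, 12.6 and 12.8 CPM in input and at 14.2, 14.8, 15.1 and 15.4 CPM in IP, which overlap (log2 0.08, SE 0.07, 95% interval -0.06 to 0.22, adjusted p = 0.333, and 0.0447 without Syn input replicate 1). Astrocyte markers were still present in the Syn IP, at a summed 4157 to 4495 CPM against 5876 to 6217 in input, with none of the 10 at 0. All 10 oligodendrocyte markers were called lower in the Syn IP (median log2 -1.78), with sums of 1509 to 2352 CPM against 4923 to 6634 in input. The part of either cell type in the levels of these enzymes was not tested.

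The difference between the cohorts was tested as an interaction of IP over input with cohort. Of the 8 genes, 5 were called lower in Syn than in Control, where 19.1% of the 16371 genes tested were. Gldc differed by a log2 value of -3.69 (SE 0.14, adjusted p = 4.01e-13), a 12.9-fold lower ratio. Phgdh differed by -3.16 (SE 0.09, adjusted p = 6.62e-15), Psat1 by -2.40 (SE 0.09, adjusted p = 2.05e-13), Amt by -2.34 (SE 0.10, adjusted p = 2.62e-12) and Psph by -1.78 (SE 0.09, adjusted p = 1.41e-11). At the adjusted p threshold alone, all 8 differed, 6 lower and 2 higher, against 34.3% and 35.8% of all genes. Within the fold limit, Shmt2 was lower by -0.80 (SE 0.08, adjusted p = 1.91e-07), and Srr (0.38, SE 0.04, adjusted p = 9.63e-07) and Shmt1 (0.62, SE 0.22, adjusted p = 0.0208) were higher. The cohorts also differed in the mice's sex, in virus and in depth, with medians of 46851046 counts in Control IP and 77673774 in Syn IP, and these cannot be told apart from the cell type. In the same test 10 of 10 oligodendrocyte markers were called lower in Syn (median log2 -1.63), and their part in the result was not tested. The Control inputs also stood 2.22 times above the other inputs and bulk libraries in Phgdh and 142.5 times in Gapdh (ratios of medians). Whether the Control cohort was aligned or counted with the same settings as the others is not given in the sources used here, and the part of such a difference in the value for Phgdh was not tested.

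**Figure D3:**
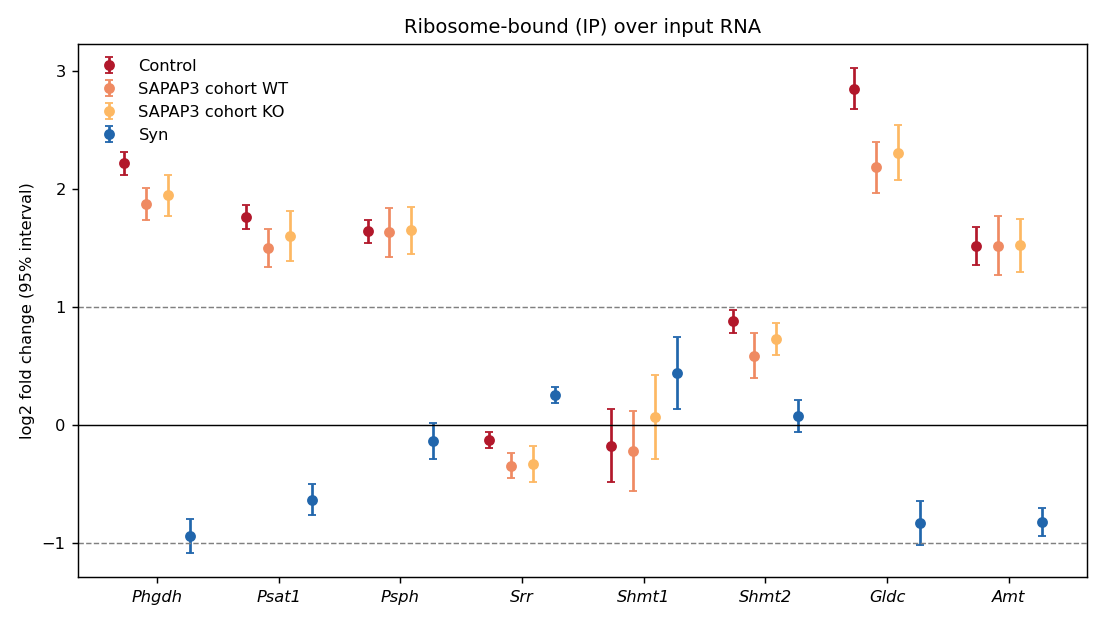
Log2 fold change of IP over input for each enzyme in 4 cohorts or genotypes, with approximate 95% intervals derived from edgeR's test, and dashed lines at the fold limit of 1 and -1. In Phgdh, Psat1, Psph, Gldc and Amt the Control and SAPAP3 cohort points lie above 1 and the Syn point lies below 0, while for Srr the Syn point alone is above 0.

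The SAPAP3 cohort repeated the contrast in other mice, of another strain label and with both sexes. In WT, 5 of 8 genes were called higher and 0 lower, where 10.9% of the 15587 genes tested were called higher, and the median was 1.51 against -0.03 over all genes. They were the same 5 genes as in the Control cohort. At the adjusted p threshold alone 6 were higher and 1 lower, beside 32.7% and 34.6% of all genes. Gldc was at 29.5, 29.1, 31.2 and 28.2 CPM in WT input and at 114, 135, 169 and 135 CPM in WT IP (log2 2.18, SE 0.11, adjusted p = 4.38e-07). Phgdh was at 25.1, 25.2, 24.1 and 24.4 CPM in WT input and at 86.0, 88.2, 98.2 and 101 CPM in WT IP (log2 1.87, SE 0.07, adjusted p = 1.76e-07). Both genes were separated without overlap. Psph (1.63, SE 0.11), Amt (1.52, SE 0.13) and Psat1 (1.5002, SE 0.08) followed, with adjusted p of 1.61e-06, 6.34e-06 and 6.64e-07. Shmt2 (0.59, SE 0.10, adjusted p = 0.000524) and Srr (-0.34, SE 0.05, adjusted p = 0.000318) passed the adjusted p but not the fold limit. Shmt1 did not pass (log2 -0.22, SE 0.17, adjusted p = 0.288).

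In KO mice the same 5 genes were called higher and 0 lower, where 12.3% of the 15583 genes tested were called higher, and at the adjusted p threshold alone 6 were higher and 1 lower, beside 36.1% and 35.9%. Gldc was at 26.2, 27.1, 27.6 and 26.4 CPM in KO input and at 102, 144, 160 and 126 CPM in KO IP (log2 2.31, SE 0.12, adjusted p = 6.07e-08). Phgdh was at 23.6, 22.7, 23.0 and 26.0 CPM in KO input and at 80.8, 85.4, 103 and 98.0 CPM in KO IP (log2 1.95, SE 0.09, adjusted p = 2.86e-08). The lowest IP library was replicate 1 for both genes, and for Psat1, Psph and Amt as well. Psph (1.65, SE 0.10), Psat1 (1.60, SE 0.11) and Amt (1.52, SE 0.11) followed, in the same range as in WT. Beside these values, the summed level of 10 oligodendrocyte markers was 8398 to 12222 CPM in WT IP against 5772 to 6828 in WT input, and 7728 to 11233 in KO IP against 6068 to 6373 in KO input, and their part in the result was not tested.

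Comparison of KO with WT asked whether loss of SAPAP3 changed these RNAs, and calls here had no fold limit. In the IP, 0 of 8 genes passed, where 0.0263% of the 15198 genes tested (4 genes) did. At an unadjusted p under 0.05 the count was 0 of 8, and 399 of all genes. Psat1 was at 300, 332, 370 and 377 CPM in WT IP and at 285, 377, 409 and 372 CPM in KO IP, which overlap (log2 0.06, SE 0.11, 95% interval -0.16 to 0.29, adjusted p = 0.999). Gldc, from the values above, gave a log2 fold change of -0.06 (SE 0.14, 95% interval -0.34 to 0.23, adjusted p = 0.999), and Phgdh -0.03 (SE 0.09, 95% interval -0.20 to 0.15). The other 5 genes lay between -0.07 (Amt) and 0.04 (Psph), and the widest of the 8 intervals, that of Shmt1, was -0.35 to 0.30.

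In the input, 0 of 8 passed, where 0.00641% of the 15591 genes tested (1 gene) did. At an unadjusted p under 0.05 the count was 1 of 8, and 869 of all genes. The 1 was Gldc, at 28.2 to 31.2 CPM in WT and 26.2 to 27.6 CPM in KO. The difference was small (log2 -0.14, SE 0.06, 95% interval -0.25 to -0.03, adjusted p = 0.735 in edgeR's test). The other 7 lay between -0.26 (Shmt1, SE 0.18, adjusted p = 0.74) and 0.06 (Psph, SE 0.09, adjusted p = 0.861).

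In bulk striatum 0 of 8 passed, where 0% of the 16020 genes tested did. At an unadjusted p under 0.05 there were 792 genes, of which 1 was among the 8, and DESeq2 called 17 genes and limma-voom 0, with 0 of the 8 by either. The 1 was Amt, at 12.4, 12.8, 13.1 and 14.7 CPM in WT and at 17.0, 16.8, 15.2 and 13.8 CPM in KO. Its groups overlapped through WT replicate 4 and KO replicate 4 (log2 0.24, SE 0.09, 95% interval 0.07 to 0.41, adjusted p = 0.984 in edgeR's test). Phgdh was at 27.4, 31.4, 28.3 and 23.3 CPM in WT and at 24.4, 25.4, 24.2 and 32.2 CPM in KO (log2 -0.06, SE 0.12, adjusted p = 0.995). Psat1 was at 151, 168, 154 and 135 CPM in WT and at 136, 142, 150 and 184 CPM in KO (log2 0.01, SE 0.10, adjusted p = 0.997). KO replicate 4 was the highest of its group for both synthesis genes and the lowest for Gldc, Amt and Srr. Its summed oligodendrocyte markers, 8800 CPM, were also the highest of the group (others 4951 to 6742). Its summed astrocyte markers (6113 CPM, others 6637 to 6953) and neuron markers (6829 CPM, others 7313 to 7532) were the lowest. Bulk WT replicate 1 had the highest oligodendrocyte sum of its group (8568 CPM, others 4904 to 7327), with the highest Srr (116 CPM) and with Phgdh at 27.4 CPM. The part of these cell types in these values was not tested, and in bulk tissue fewer cells of a type and less RNA per cell cannot be told apart.

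The change in IP over input between KO and WT was tested as an interaction. Here 0 of 8 passed, where 0% of the 16059 genes tested did, with 203 genes at an unadjusted p under 0.05, none of them among the 8, and 1 gene by DESeq2 and 0 by limma-voom. The 8 values lay between -0.04 (Amt, SE 0.19) and 0.24 (Shmt1, SE 0.24), each with an adjusted p of 1. The interval for Phgdh was -0.18 to 0.25 and that for Gldc -0.25 to 0.42 on the log2 scale.

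**Figure D4:**
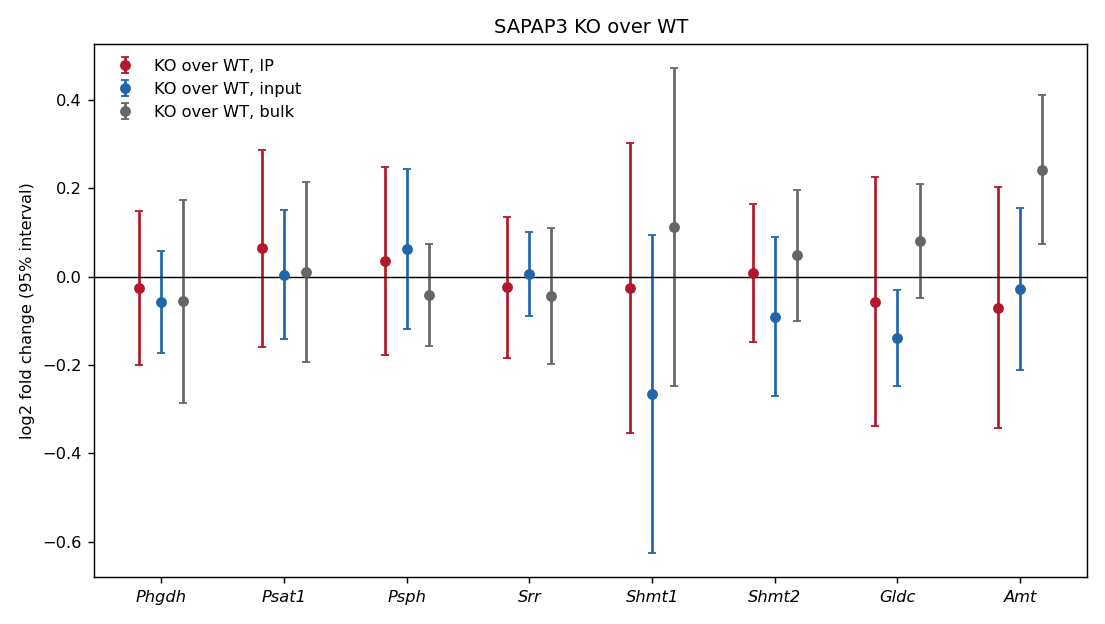
Log2 fold change of SAPAP3 KO over WT for each enzyme in IP, input and bulk striatum, with approximate 95% intervals derived from edgeR's test. All 24 points lie between -0.26 and 0.24, and the intervals leave out 0 only for Gldc in input and Amt in bulk.

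In whole tissue, the range of the Control inputs was apart from that of the other 20 input and bulk libraries for 1 of the 8 genes, Phgdh, and for 23% of the 14008 genes that averaged 1 CPM or more. In the Control inputs Phgdh was at 53.7 to 59.1 CPM, and in the other 20 libraries it was at 22.7 to 32.2 CPM, so the ranges did not overlap and the medians differed by 2.22 times. Psat1, the next enzyme, was at 105 to 112 CPM in Control inputs and 98.6 to 184 elsewhere, with a ratio of medians of 0.85. Psph (1.04), Gldc (0.95), Amt (1.02), Shmt2 (1.05) and Srr (0.88) had ratios near 1, and Shmt1 had 1.58 with overlapping ranges. Gapdh, a glycolytic gene with many copies in the genome, moved the same way as Phgdh but far more, from 2.54 to 5.46 CPM in the 20 libraries to 556 to 593 CPM in the Control inputs. The ratio of Phgdh to Psat1 per length was 0.64 to 0.75 in Control input and 0.23 to 0.34 as the mean of each other input or bulk group. A comparison of Phgdh levels between the Control cohort and the others therefore cannot be made, and each of its ratios of IP to input rests on libraries of 1 cohort. The part of its near-identical copies in this difference was not tested.

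The order of groups differed between Srr or Shmt1 and the other genes. For Psph, Shmt2 and Gldc the Control IP was highest, with no overlap with the next group, and for Psat1 and Amt it overlapped the KO IP or WT IP of the SAPAP3 cohort. For Psat1, Gldc and Amt the Syn IP was lowest, also without overlap with the group above it. For Srr the Syn IP had the highest mean (114 ± 1.29 CPM), ahead of bulk WT (102 ± 10.3), which it overlapped, and the KO IP the lowest (75.4 ± 8.67). For Shmt1 the Syn IP also had the highest mean (2.78 ± 0.15 CPM), and every group overlapped the next. For Shmt2 the bulk groups were lowest (10.6 ± 0.75 CPM in WT and 10.96 ± 0.66 in KO, which overlap).

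Genes of like pattern were sought among the 11761 other genes that averaged 5 CPM or more. The measure was the Pearson correlation of log2(CPM + 0.5) over the 40 libraries. For these correlations CPM was scaled by total counts and not by TMM. Mean TMM factors were 0.9041 to 0.9227 in the IP groups and 1.047 to 1.111 in the input groups. The total-count scale therefore shifts IP against input. These correlations are descriptions, since the libraries share cohorts, inputs and the split between IP and input. Gldc was closest to Asrgl1 (0.995), Aldoc (0.992) and Sfxn5 (0.991). Psat1 was closest to Ak3 (0.990), Fgf1 (0.988) and Rftn2 (0.988), and Psph to Nxn (0.989), Mlc1 (0.988) and Acsbg1 (0.988). Amt was closest to Evc (0.983), Ntsr2 (0.979) and Adhfe1 (0.978). Phgdh was closest to Pantr1 (0.976), Metap2 (0.973) and Myh14 (0.969), in a ranking that carries its difference between cohorts. Srr was closest to Gas7 (0.974), Frrs1l (0.967) and Rbfox3 (0.965), the last a marker of neuronal nuclei. Shmt2 was closest to Tubb6 (0.948), Man2b2 (0.946) and Cox6b2 (0.944), and Shmt1 to Get4 (0.803), Qpctl (0.794) and Arl6ip4 (0.785) among 11762 genes. Among the 8 themselves the highest correlations were those of Gldc with Amt (0.974) and with Psph (0.970). On the total-count scale Srr was negative with each of the 5 enriched genes, from -0.82 with Phgdh to -0.935 with Psph. On that scale Srr was at 93.15 to 97.64 CPM in Control input and 72.66 to 77.17 in Control IP. With TMM these ranges were 83.76 to 89.23 and 79.83 to 85.56, which overlap. The part of the scaling in the negative values was not tested.

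The neighbouring steps of the pathway were followed with 6 lists of genes. Of the 5 partners of the glycine cleavage system, the H and L protein genes Gcsh and Dld and the lipoylation genes Lias, Lipt1 and Lipt2, 0 were called in either direction in Control IP or in Syn IP. Of all genes, 13.4% were called higher and 13.5% lower in Control IP, and 0.42% and 15.8% in Syn IP. At the adjusted p threshold alone, 3 of the 5 were higher and 2 lower in Control IP, and 3 were higher and 0 lower in Syn IP. The largest in Control IP were Gcsh (log2 0.86, SE 0.04, adjusted p = 1.50e-09) and Dld (0.71, SE 0.03, adjusted p = 4.82e-09), and the list spanned -0.34 to 0.86 there, with a median of 0.18.

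Of 12 serine and glycine transporters tested, 4 were called higher and 2 lower in Control IP (against 13.4% and 13.5% of all genes), and 0 higher and 3 lower in Syn IP (against 0.42% and 15.8%). Slc38a3, a glutamine transporter of system N, was higher by 2.56 on the log2 scale (SE 0.08, adjusted p = 9.85e-11), and Slc7a10, which exchanges D-serine and other small neutral amino acids, by 2.17 (SE 0.10, adjusted p = 2.11e-09) in Control IP. In Syn IP Slc7a10 was lower, with a log2 fold change of -1.14 (SE 0.06, adjusted p = 2.02e-07). Slc38a5 and Slc6a20a were lower in both, at -3.54 and -2.23 in Control IP and at -3.67 and -2.33 in Syn IP. The list moved in both directions, with a median of 0.32 in Control IP and -0.41 in Syn IP.

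Of 18 other enzymes that make or use serine or glycine, 8 were called higher and 0 lower in Control IP (against 13.4% and 13.5% of all genes), and 0 higher and 2 lower in Syn IP (against 0.42% and 15.8%, so the lower calls did not exceed the background). The largest were Sdsl, a serine dehydratase-like gene (log2 2.53, SE 0.10), Cbs, which joins serine to homocysteine (2.51, SE 0.06), Ddo, the D-aspartate oxidase (2.50, SE 0.08), and Sardh, which forms glycine from sarcosine (2.46, SE 0.06). Each had an adjusted p below that of Amt in the same comparison. In Syn IP the 2 were Gatm, which makes guanidinoacetate from glycine (-1.92, SE 0.09, adjusted p = 1.14e-07), and Gnmt, the glycine methyltransferase (-1.47, SE 0.35, adjusted p = 0.00343). The median of this list was 0.75 in Control IP and 0.02 in Syn IP.

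Of 16 folate enzymes, 4 were called higher and 2 lower in Control IP (against 13.4% and 13.5% of all genes), and 0 higher and 1 lower in Syn IP (against 0.42% and 15.8%). The lower calls did not exceed the background in either. Aldh1l1, the formyltetrahydrofolate dehydrogenase used as an astrocyte marker, was the highest at 2.96 (SE 0.05, adjusted p = 2.40e-12), followed by its mitochondrial relative Aldh1l2 at 1.61 (SE 0.19, adjusted p = 1.35e-05) and Mthfd1 at 1.32 (SE 0.04, adjusted p = 9.07e-11). Ftcd was lower at -1.39 (SE 0.37, adjusted p = 0.0048). Tyms, which makes thymidylate, was the gene called lower in Syn IP (-1.39, SE 0.18, adjusted p = 6.42e-05). The median of the list was 0.13 in Control IP and -0.15 in Syn IP.

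Of 14 amino acid response genes, which are known targets or partners of ATF4, 4 were called higher and 0 lower in Control IP (against 13.4% and 13.5% of all genes), and 0 higher and 2 lower in Syn IP (against 0.42% and 15.8%, so the lower calls were near the background). Those higher in Control IP were Slc7a11 (2.27, SE 0.07), Sesn2 (2.15, SE 0.06), Eif4ebp1 (1.71, SE 0.14) and Atf5 (1.43, SE 0.07). Slc7a11 (-1.09, SE 0.07) and Eif4ebp1 (-1.08, SE 0.11) were the genes called lower in Syn IP. The median was 0.14 in Control IP and 0.03 in Syn IP.

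Of 9 receptor genes for glycine or D-serine tested in Control IP, 1 was called higher, Grin3a, a glycine-binding NMDA receptor subunit (1.63, SE 0.07, adjusted p = 2.59e-09), and 0 lower, against 13.4% and 13.5% of all genes, so the higher call was near the background. In Syn IP 0 of 10 were called in either direction, with a median of 0.24. No gene of the 6 lists was called in KO over WT in IP, input or bulk.

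**Figure D5:**
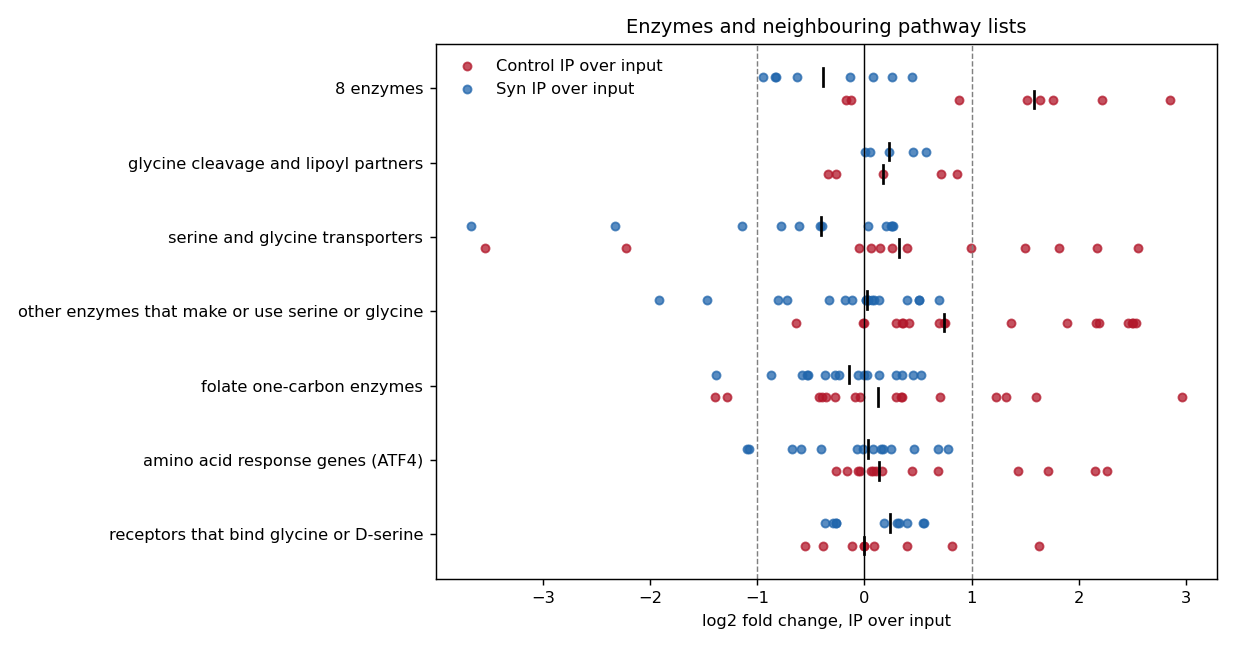
Log2 fold change of IP over input for the 8 enzymes and for 6 lists of neighbouring pathway genes, 1 point per gene (red, Control; blue, Syn) with the median as a black bar and dashed lines at 1 and -1. The 8 enzymes have a median of 1.58 in Control IP, and the medians of the lists lie between 0.00 and 0.75.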

How the data were processed

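RNA of striatum was counted per gene in 40 libraries. The submitters' processing notes name STAR, HTSeq and mm10 (versions not given in the sources used here), and the authors deposited raw counts (24060 rows, none of its 40 columns without a sample). Kits and sequencer differ between labels and methods. Counts were fitted here in edgeR 4.0.16 (R 4.3.3; filterByExpr, TMM, quasi-likelihood test, Benjamini-Hochberg adjustment over all genes tested), 2 groups per fit or 4 for interactions, after a test on simulated data. Alternatives were limma-voom 3.58.1, DESeq2 1.42.0, other scalings and filters, Xist as covariate, a replicate block and leaving out libraries. FPKM used RefSeq merged exon lengths. Copies were sought with minimap2 2.31.

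The 8 genes and the lists were chosen with earlier results of these data known. From each list the text names up to 4 called genes with the largest change in Control IP and in Syn IP, plus any called between genotypes, and for each of the 8 genes the 3 of most similar pattern. Libraries were paired by animal identifier, and in the Syn cohort, where identifiers differ, by the number in the title. Paired IP and input deviations correlated at 0.248 to 0.793 over 11762 genes. In the Syn cohort they correlated at 0.48 to 0.793, so same-numbered Syn libraries varied together. Other pairs there averaged -0.199, but each gene's group mean had been subtracted, which largely fixes that value. Whether same-numbered libraries share a mouse or a step of handling cannot be told apart. Values are from the fit without the replicate block, and the block is an alternative. With 4 libraries a group, p-values rest on the spread between libraries within the groups. Those of IP over input leave the pairing aside, except with the replicate block.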

Additional observations from a re-analysis of the deposited data

Results flagged for a closer look

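Of 80 sets of 4 libraries (8 genes in 10 groups), 6 held 1 library far from the other 3, where chance gives about 1 in 20, or 4. Bulk KO replicate 4 stood apart in 2 genes, with Phgdh at 32.2 CPM (others 24.2 to 25.4) and Srr at 88.8 CPM (others 101 to 103). Psph was at 34.9 CPM in SAPAP3 KO IP replicate 1 (others 44.2 to 45.5), Srr at 89.2 CPM in Control input replicate 3 (others 83.8 to 84.2), Shmt1 at 1.75 CPM in SAPAP3 WT IP replicate 4 (others 1.93 to 1.95) and Shmt2 at 11.7 CPM in bulk WT replicate 1 (others 10.2 to 10.3). Without bulk KO replicate 4, none of the 8 genes was called in bulk.

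The ratio of IP to input differed between the Syn and Control cohorts by the interaction test, at the adjusted p threshold alone, for all 8 genes. By the same test 34.3% of the 16371 genes tested were lower in Syn and 35.8% higher, so most genes differed. The log2 differences, Syn minus Control, were -3.69 for Gldc, -3.16 for Phgdh, -2.40 for Psat1, -2.34 for Amt, -1.78 for Psph, -0.80 for Shmt2, 0.38 for Srr and 0.62 for Shmt1.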

How the results depend on the processing

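Of 1445 values recomputed under an alternative, 1371 kept their direction and their call, which for IP over input includes the fold limit. Of 1283 values of single genes with an adjusted p, 13 changed side of 0.05 when the fold limit is left aside, 12 of them in Syn IP over input. There Psph passed with total counts (adjusted p = 0.00446), upper quartile scaling (0.0239), the replicate block (0.0209) and without Syn input replicate 3 (0.0437), and Shmt2 without Syn input replicate 1 (0.0447). Srr was lost with total counts (0.185) and the FPKM filter (0.072). Shmt1 was lost with total counts (0.205), upper quartile scaling (0.0678) and without Syn input replicate 1 (0.0744), Syn input replicate 3 (0.0593) or Syn IP replicate 2 (0.0518). In Control, Shmt1 passed as lower with total counts (0.0343). The block changed no other call of these genes. The 5 genes called in the Control and SAPAP3 IP, the 5 called in the interaction and the 0 called between genotypes were counted alike under every alternative run, with or without the replicate block, which gave a log2 fold change of -0.94 for Phgdh and 0.25 for Srr in Syn IP. In Syn IP over input the 0 called became 3 with total counts, 1 with upper quartile scaling and 3 with an FPKM filter of 5 in 4 libraries. Over all genes, 3105 and 2801 of 16198 were called lower under these scalings, and 506 of 8405 under the filter. Phgdh then had -1.15, -1.035 and -1.13. Total counts and upper quartile scaling moved the median of all genes to -0.21 and -0.10, and the filter left fewer genes to test. The log2 value of Shmt2 in Syn IP became -0.1266, -0.0152 and -0.1066 under these 3, and that of Shmt1 in SAPAP3 KO IP over input -0.139 and -0.0607 under the first scalings. Shmt1 failed the FPKM filter in every comparison, Psph in Syn and in SAPAP3 input, and both with Shmt2 in bulk.

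Other reversals were of KO against WT, within -0.0907 to 0.0912, none called, and the cause was not tested. In IP, total counts gave -0.0098 for Shmt2 and the Xist covariate 6e-04 for Gldc and -0.0205 for Shmt2. In input, total counts, upper quartile scaling and the FPKM filter gave -0.0236, -0.0248 and -0.0121 for Psat1 and -0.0223, -0.0224 and -0.0093 for Srr. In bulk, the Xist covariate gave 0.0034 for Psph. Leaving out each library gave, in IP, -0.0862 to 0.0289 for Phgdh, -0.0031 to 0.1608 for Psat1, -0.0441 to 0.1172 for Psph, -0.0821 to 0.0404 for Srr, -0.0923 to 0.0912 for Shmt1, -0.0297 to 0.0719 for Shmt2, -0.1571 to 0.0495 for Gldc and -0.1739 to 0.0318 for Amt. In input the ranges were -0.0338 to 0.0560 for Psat1, -0.0249 to 0.0291 for Srr and -0.0856 to 0.0423 for Amt. In bulk they were -0.1626 to 0.0138 for Phgdh, -0.0907 to 0.0647 for Psat1, -0.0873 to 0.0265 for Srr and -0.0102 to 0.2102 for Shmt1. For the change of IP over input between genotypes they were -0.0254 to 0.0901 for Phgdh, -0.0039 to 0.1596 for Psat1, -0.1130 to 0.0579 for Psph, -0.0866 to 0.0374 for Srr, -0.0147 to 0.1926 for Gldc and -0.1513 to 0.0634 for Amt.

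Depth limits Shmt1 most, at 44 to 209 counts a library. Phgdh levels cannot be compared between the Control cohort and the others, and reads of Srr and Tsr1 cannot be told apart without strand. Over all genes, calls in either direction fell with the FPKM filter, which tests fewer genes, from 4157 to 1705 in Control, 2635 to 509 in Syn, 3590 to 1272 in SAPAP3 WT, 3713 to 1424 in SAPAP3 KO and 4489 to 2032 in the interaction, and DESeq2 called 8 genes between genotypes in IP and 8 in input, against 4 and 1.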
